A study of Mus musculus with 44 samples.

Results

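The heat-shock chaperones and co-chaperones are the cytosolic machinery that folds, holds and refolds proteins, here with their mitochondrial counterparts. They were chosen by gene symbol as 36 genes, and all 36 were found among the 22674 genes of the maturation table and among the 18274 genes of the ovulation table. Hspa1a and Hspa1b, whose coding sequences are near-identical, were summed, which left 35 units. By role these are 9 of the HSP70 family, 6 of the HSP90 family and its co-chaperones, 8 HSP40 (J-domain) proteins, 6 small heat shock proteins and BAG co-chaperones, 3 mitochondrial chaperones, and 3 other genes, Hsf1, Hsf2 and the ubiquitin gene Ubb.

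The libraries were made from mouse ovarian follicles of the outbred CD-1 strain, all labelled wild type (WT). Each window of exposure to PFNA (perfluorononanoic acid, a long-chain perfluorinated carboxylic acid) had its own controls. In the maturation window, when follicle growth depends on gonadotropin, 11 DMSO controls were set against 10 PFNA libraries. In the ovulation window 12 controls given hCG (human chorionic gonadotropin, which induces ovulation) were set against 11 libraries given hCG and PFNA. The labels give no dose, duration, animal age or batch, and they do not say whether libraries of a group came from separate animals, so p-values measure the spread between these libraries.

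Chaperones of the HSP70 family bind exposed stretches of unfolded proteins in cycles of ATP hydrolysis that J-domain proteins start and nucleotide exchange factors end. HSP90 takes partly folded clients from HSP70, and in ovarian cells its clients include the receptors of steroid hormones. When unfolded proteins accumulate, heat shock factor HSF1 is released from chaperones and binds heat shock elements, which are inverted repeats of GAA, before the genes of inducible chaperones.

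Maturation levels are in TPM (transcript abundance per unit of length, scaled to the same total in each library), for which the number of reads is unknown. Ovulation levels are in CPM (counts scaled to library size, after TMM normalisation), from library totals of 10600931 to 19511531 counts, and are not per length, so they are not compared between genes. Levels are not compared across the tables, which were normalised separately. A gene was called where its adjusted p was under 0.05, in limma on log2(TPM + 1) for maturation and in edgeR's quasi-likelihood test for ovulation.

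The promoters of Hspa1a, Hspa1b and Hspb1 are shown because these members rose most with PFNA in the ovulation window. The sequences are from RefSeq (GRCm38.p6) and are the 150 bases before the start site, read 5′ to 3′ on the gene's strand. Capitals mark the 2-unit heat shock element, written TTCNNGAA or GAANNTTC, each of which is its own reverse complement. Hspa1a (chr17:34969190-34972156, minus strand) and Hspa1b (chr17:34956436-34959238, minus strand) each have 1 exon, and Hspb1 (chr5:135887919-135889563, plus strand) has 3 exons.
Hspa1a, chr17:34972157-34972306, minus strand: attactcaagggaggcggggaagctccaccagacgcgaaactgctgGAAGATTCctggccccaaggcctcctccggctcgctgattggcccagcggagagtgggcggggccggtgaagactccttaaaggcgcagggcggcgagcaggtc
Hspa1b, chr17:34959239-34959388, minus strand: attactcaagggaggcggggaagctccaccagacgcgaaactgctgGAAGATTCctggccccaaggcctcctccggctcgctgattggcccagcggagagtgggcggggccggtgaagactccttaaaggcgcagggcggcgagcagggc
Hspb1, chr5:135887769-135887918, plus strand: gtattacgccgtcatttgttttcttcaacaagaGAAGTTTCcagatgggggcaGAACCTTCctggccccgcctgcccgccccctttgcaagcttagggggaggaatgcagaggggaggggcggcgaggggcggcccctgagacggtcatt
The Hspa1a and Hspa1b promoters shared 149 of these 150 bases, and 247 of the 250 bases before the start. Both carry the element from base -104 to base -97, and Hspb1 carries it at -117 and again at -97, counting back from the start.

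Windows of 30 bases around the element are shown for other members, since they include genes that rose and genes that fell.
Hspe1, chr1:55088053-55088082, plus strand: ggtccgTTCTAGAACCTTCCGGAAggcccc
Hsph1, chr5:149636351-149636380, minus strand: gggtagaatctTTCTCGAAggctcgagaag
Dnaja1, chr4:40722333-40722362, plus strand: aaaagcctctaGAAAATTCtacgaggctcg
Dnajb4, chr3:152193846-152193875, minus strand: gttcgttcgttcgctgTTCTAGAAagtaca
Hspb6, chr7:30553170-30553199, plus strand: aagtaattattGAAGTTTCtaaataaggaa
Dnajb6, chr5:29735844-29735873, plus strand: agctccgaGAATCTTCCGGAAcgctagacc
Fkbp4, chr6:128438789-128438818, minus strand: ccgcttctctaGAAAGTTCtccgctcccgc
The window of Hspe1, the cochaperonin of the mitochondrial HSP60 chamber, lies between the RefSeq start sites of Hspe1 and Hspd1. Hspd1, the HSP60 gene, is the neighbour of Hspe1 on the opposite strand, so the same letters stand before both RefSeq starts. By the gene positions that follow, the window lies within Hspd1, which there starts at base 55088243. Hspd1 (chr1:55077835-55088243, minus strand) and Hspe1 (chr1:55088132-55091307, plus strand) overlap by 112 bases, and without a stated use of strand their reads in that stretch cannot be told apart.

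RefSeq promoters were found for 29 of the 36 genes, and not for Hspa8, Hspa9, Hspa13, Hsp90aa1, Hsp90ab1, Hsf1 and Cryab. The 250 bases before a start held the 2-unit element in 12 of the 29 members, against 14.55% of the 27025 genes with a promoter in that table. The 3-unit form, which contains overlapping 2-unit forms, was present in 3 members, Hspd1, Hspe1 and Dnajb6, against 0.51% of all genes. CCAAT, searched on both strands, was present in 13 members, against 37.49% of all genes, and TATAAA, on both strands, in Hspb6 and Stip1, against 14.33%. Of the 12 members with the 2-unit element, Fkbp4, Dnaja4 and Dnajb6 were lower with PFNA in the ovulation window and 9 were higher. All genes tested gave 35.2% lower and 37.9% higher there. The 9 include Hspa1a and Hspa1b, tested as a sum, and Hspd1 and Hspe1, which share the same letters. Members with a promoter but without the element also rose (Dnajb1, Bag3 and Stip1 among them) or fell (Hspa4 and Hspa14 among them). A match describes the letters in this window only.

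**Figure D1:**
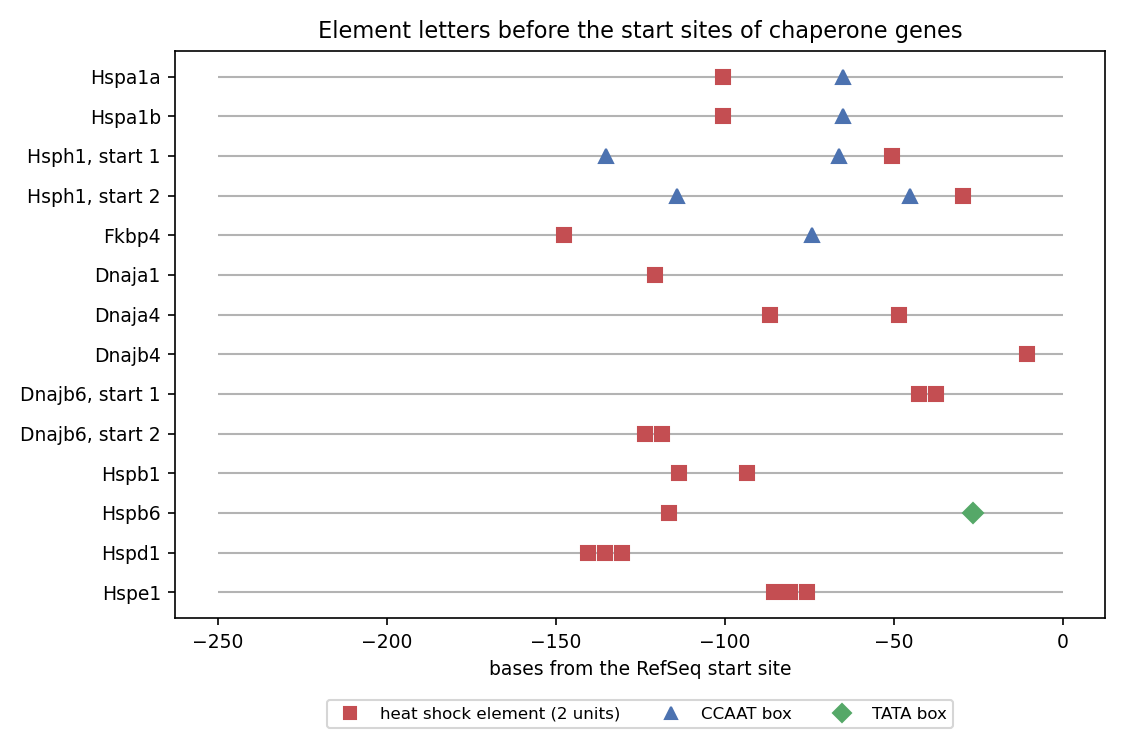
Positions of the 2-unit heat shock element (red squares), the CCAAT box (blue triangles) and TATAAA (green diamond) in the 250 bases before each RefSeq start site, for the members with the 2-unit element; the horizontal axis is bases from the start. Hspa1a and Hspa1b have the same layout, and Hspd1 and Hspe1 carry neighbouring matches from their shared window.

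In the maturation window 9 of the 35 members rose with PFNA, against a background of 13.3% of the 13711 genes tested in limma. Another 5 fell, against 16.1% of all genes, and 21 did not pass the test. The median log2 fold change was 0.03 over the members and 0.02 over all genes tested. In the ovulation window 22 members rose, against 37.9% of the 13440 genes tested in edgeR, 9 fell, against 35.2%, and 4 (Hspa2, Hspa12a, Cryab and Hsf2) did not pass. The median log2 fold change was 0.47 over the members and 0.04 over all genes. A rise of at least 2-fold was called for 9 members, against 18.1% of all genes, and for 13 members every PFNA library lay above every control, against 11.9%. No member had every PFNA library above every control in the maturation window, a pattern of 0.489% of all genes. All 9 members that rose in the maturation window also rose in the ovulation window, where they were 9 of 22. Hspa14 and Fkbp4 fell in both windows. Stip1, Hspb6 and Bag2 fell in the first and rose in the second. The share of all genes called in both windows was not counted, so these overlaps describe the members only.

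**Figure D2:**
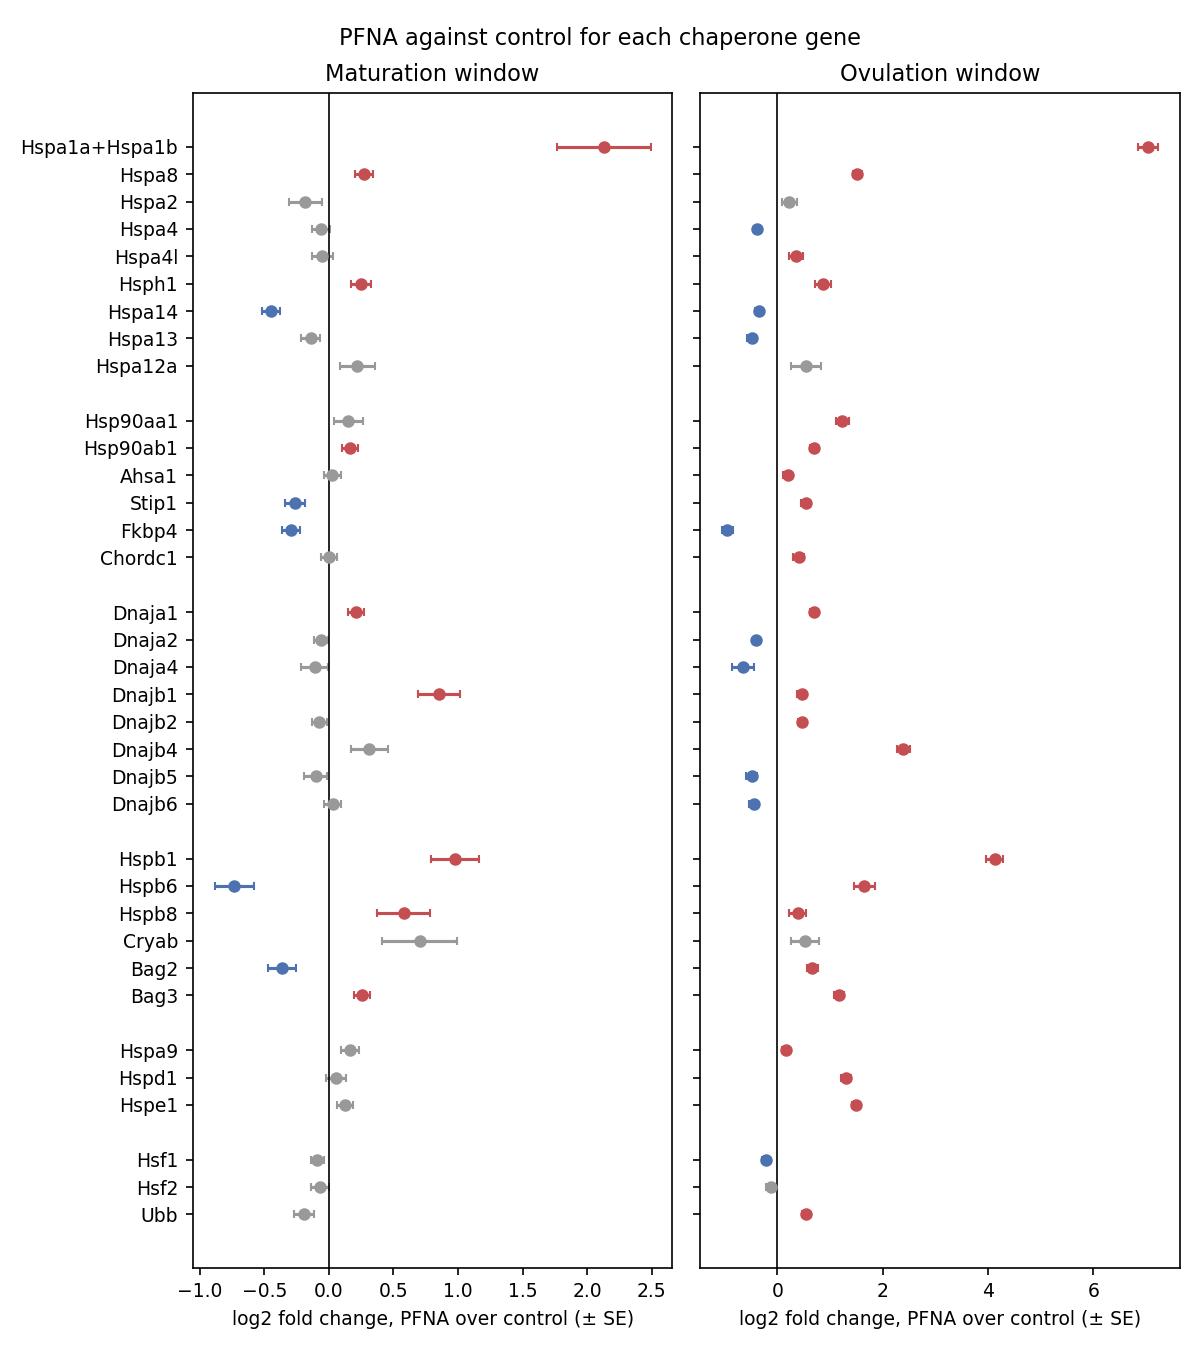
Log2 fold change of PFNA over control (points, with SE as bars) for each member in the maturation window (left, limma on log2(TPM + 1), 11 and 10 libraries) and the ovulation window (right, edgeR, 12 and 11 libraries), with blanks between role groups. Red points were called higher, blue lower and grey did not pass; the horizontal scales differ, and the Hspa1a and Hspa1b sum lies farthest to the right in both windows.

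The libraries differed in the levels of marker genes of cell types, and markers of 1 type did not always move together. The summed oocyte markers were 126 to 203 TPM in maturation controls, while in PFNA libraries they were 130 and 112 TPM in replicates 1 and 2, 346 TPM in replicate 10, and 0.4 to 2.3 TPM in the other 7, with all 10 markers tested lower and all 12 at medians under 1 TPM. On principal component 1, with 28.6% of the variance, PFNA replicates 1 and 2 fell within the control range of -37.6 to -7.59. PFNA replicate 10, with the highest oocyte marker sum, lay outside that range at 45.1. Ovulation-window oocyte markers were 83.5 to 410 CPM in controls and 13.9 to 501 CPM with PFNA, and 6 of 11 tested were higher. Granulosa markers, of the cells that surround the oocyte, summed to 34122 to 54478 TPM in maturation controls and 14600 to 40771 TPM with PFNA, and no marker found in the tables was at 0 throughout a group. Of these 9 markers, 6 were lower in the maturation window, and in the ovulation window 6 were higher and 2 lower. Their ovulation sum was 11579 to 18161 CPM in controls and 9438 to 15266 CPM with PFNA. The 2 lower, Inha and Inhba, had control means of 7352 and 6697 CPM, against 14400 CPM for the sum. Theca and stroma markers summed to 134 to 1148 CPM in ovulation controls and 788 to 2026 CPM with PFNA, where 5 of 8 were higher and 1 lower. Endothelial markers summed to 37.7 to 120 CPM and 39.7 to 337 CPM there, with 5 of 6 higher. In the maturation window none of 8 theca and stroma markers and none of 4 endothelial markers tested passed. These marker counts stand beside 13.3% higher and 16.1% lower of all genes in the maturation window, and 37.9% and 35.2% in the ovulation window. Immune markers summed to 2.12 to 85.9 TPM and, with PFNA, 34.6 to 205 TPM in the maturation window, where 2 of 4 tested were higher. In the ovulation window they summed to 1.94 to 113 CPM and 156 to 714 CPM, and 4 of 8 tested were higher. Most of the PFNA sum there was Cd3e (means of 0.192 and 275 CPM). Immediate-early genes, which respond to handling and stress, rose in 4 of 12 cases in the maturation window, and in 6 of 12 with 3 lower in the ovulation window. The part of these differences in the results was not tested, and in such bulk samples fewer cells of a type and less RNA per cell cannot be told apart.

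Hspa1a and Hspa1b encode the inducible cytosolic HSP70, which is scarce in most unstressed cells. In maturation controls their sum ranged from 457 to 3108 TPM with a median of 1473 TPM, and with PFNA from 1090 to 11038 TPM with a median of 6739 TPM. Of the 10 PFNA libraries, 9 lay above every control, and replicate 8, at 1090 TPM, lay within the control range. Control libraries averaged 1497 ± 793 TPM (SD, n = 11) and PFNA libraries 6583 ± 2877 TPM (SD, n = 10), and the rise was 2.13 ± 0.365 on the log2 scale (SE; limma adjusted p = 0.000177). This was the only member called with a change of at least 2-fold in that window. The PFNA libraries in which oocyte markers were present, replicates 1, 2 and 10, had 5939, 11038 and 6433 TPM, all above the controls, and 6 of the 7 libraries at or under 2.3 TPM of oocyte markers were above them too. With the oocyte marker level as a covariate the log2 fold change was 2.61 (limma adjusted p = 0.0111).

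In the ovulation window the same sum was low in every control, at 9.55 to 23.2 CPM with a median of 14 CPM. With PFNA it was 1253 to 3296 CPM with a median of 1811 CPM, so the lowest PFNA library was far above the highest control. Control libraries averaged 14.8 ± 3.43 CPM (SD, n = 12) and PFNA libraries 1939 ± 630 CPM (SD, n = 11), a 131-fold rise (log2 fold change 7.03 ± 0.192, SE; edgeR adjusted p = 8.58e-20). The PFNA effect was larger than in the maturation window by 4.78 ± 0.393 on the log2 scale (SE; limma adjusted p = 1.75e-11 for the difference). The sum took a median of 0.147% of all TPM in maturation controls and 0.674% with PFNA. Its ovulation shares were 0.0014% of all counts in controls and 0.189% with PFNA.

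**Figure D3:**
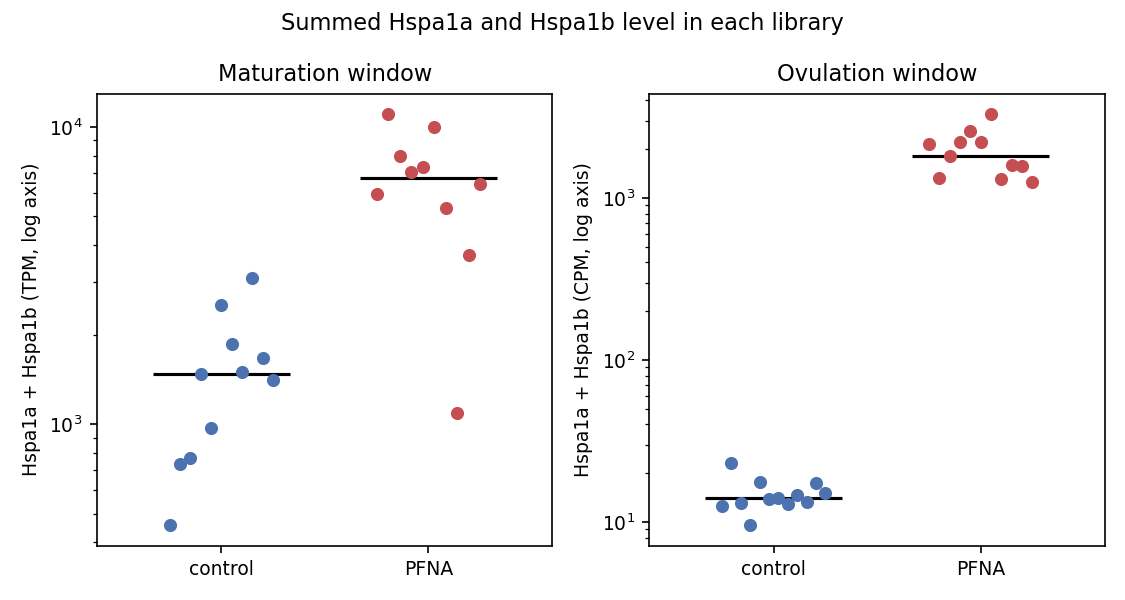
Summed Hspa1a and Hspa1b level in each library (points) on log axes, in TPM for the maturation window (left) and CPM for the ovulation window (right), with black lines at the group medians. In the maturation window PFNA replicate 8 lies within the control range; in the ovulation window all 11 PFNA libraries, at 1253 to 3296 CPM, lie above all 12 controls.

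The 2 copies could not be separated cleanly. In ovulation controls the deposited estimate of each gene was not a whole number in 12 of 12 libraries, yet their sum was whole within 0.01 in 10 of 12. In ovulation PFNA libraries Hspa1a was not whole in 10 of 11 and Hspa1b in 9 of 11, and the sum was whole in 0 of 11. The share given to Hspa1b had a median of 61.5% in these controls and 62.2% with PFNA. Taken apart, Hspa1a had log2 fold changes of 2.15 in the maturation window and 6.96 in the ovulation window, and Hspa1b had 2.12 and 7.08.

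Hspa8, the constitutive HSP70 of the cytosol, had 832 to 1084 TPM (median 964 TPM) in maturation controls and 915 to 1555 TPM (median 1152 TPM) with PFNA. The groups overlapped, and the rise was 0.27 ± 0.07 on the log2 scale (SE; limma adjusted p = 0.00576), a call lost with the oocyte marker level as a covariate (log2 fold change 0.33, limma adjusted p = 0.0576). Ovulation controls had 1500 to 1853 CPM (median 1704 CPM) and PFNA libraries 4001 to 6073 CPM (median 4330 CPM). These groups did not overlap, with means of 1675 ± 113 CPM (SD, n = 12) and 4799 ± 810 CPM (SD, n = 11) and a 2.86-fold rise (log2 fold change 1.52 ± 0.0822, SE; edgeR adjusted p = 2.33e-14). The effect was larger in the ovulation window by 1.23 ± 0.105 (SE, log2; limma adjusted p = 6e-14).

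Among the nucleotide exchange factors of the family, Hsph1 (HSP110) rose in both windows, by 0.25 and 0.86 on the log2 scale (adjusted p = 0.0175 in limma and 1.3e-05 in edgeR). Hspa4, of the same class, did not pass in the maturation window (log2 fold change -0.06) and fell by 0.39 in the ovulation window (edgeR adjusted p = 9.72e-06). Hspa4l rose there by 0.35 (edgeR adjusted p = 0.0162). Hspa14, which works at the ribosome, fell by 0.45 in the maturation window (limma adjusted p = 7.31e-05), where 8 of 10 PFNA libraries were under the lowest control, and by 0.36 in the ovulation window (edgeR adjusted p = 4.49e-05). With the oocyte covariate its maturation value was -0.29 (limma adjusted p = 0.0663). Hspa13, an HSP70 of the endoplasmic reticulum, had a log2 fold change of -0.14 in the maturation window (limma adjusted p = 0.139) and fell by 0.49 in the ovulation window, and the effects differed by -0.36 (limma adjusted p = 0.0045). Hspa2, known for its role in male germ cells, and Hspa12a passed in neither window.

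Of the cytosolic HSP90 genes, the constitutive Hsp90ab1 was the more abundant per length. It had 1941 to 2829 TPM (median 2565 TPM) in maturation controls and 2611 to 3498 TPM (median 2768 TPM) with PFNA. The groups overlapped, and the rise of 0.17 ± 0.0614 (SE, log2) was near the threshold (limma adjusted p = 0.0466), a call lost in 15 of 21 fits without 1 library. Its ovulation levels went from 2292 to 2850 CPM (median 2575 CPM) in controls to 3392 to 5169 CPM (median 3909 CPM), with no overlap. The means were 2574 ± 161 CPM (SD, n = 12) and 4147 ± 641 CPM (SD, n = 11), a 1.61-fold rise (edgeR adjusted p = 1.24e-08).

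Hsp90aa1, the inducible HSP90, had 301 to 418 TPM (median 365 TPM) in maturation controls and 229 to 533 TPM (median 439 TPM) with PFNA. PFNA libraries lay on both sides of the controls, 6 above all of them and replicate 8 below. The log2 fold change of 0.15 (95% interval -0.08 to 0.38) did not pass (limma adjusted p = 0.326). Without PFNA replicate 8, Hsp90aa1 was called higher (log2 fold change 0.24, limma adjusted p = 0.0249). In the ovulation window it had 914 to 1242 CPM (median 1050 CPM) in controls and 1659 to 3915 CPM (median 1975 CPM) with PFNA, with no overlap. The means were 1058 ± 96.4 CPM (SD, n = 12) and 2478 ± 752 CPM (SD, n = 11), a 2.34-fold rise (log2 fold change 1.23 ± 0.125, SE; edgeR adjusted p = 2.43e-09). The effect was larger in the ovulation window by 1.02 ± 0.164 (SE, log2; limma adjusted p = 5.06e-07).

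Of the HSP90 co-chaperones, Stip1 and Fkbp4 fell in the maturation window, and in the ovulation window Fkbp4 fell while Stip1, Chordc1 and Ahsa1 rose. Stip1 (HOP), which joins HSP70 to HSP90, fell by 0.26 in the maturation window, a call lost with the oocyte covariate at a similar size (-0.25, limma adjusted p = 0.18), and rose by 0.54 in the ovulation window, where all 11 PFNA libraries lay above the controls. The difference of 0.79 ± 0.115 (SE, log2) passed (limma adjusted p = 6.21e-08). Fkbp4 (FKBP52), a partner of HSP90 in steroid receptor complexes, fell by 0.30 in the maturation window, with 9 of 10 PFNA libraries below every control. Levels in ovulation controls were 344 to 746 CPM (median 546 CPM) and in PFNA libraries 199 to 351 CPM (median 265 CPM). Of these PFNA libraries 10 of 11 lay below every control, and the fall was 0.95 ± 0.104 (SE, log2; edgeR adjusted p = 9.02e-09). Chordc1 rose in the ovulation window by 0.40 and did not pass in the maturation window. Ahsa1, which stimulates the ATPase of HSP90, rose by 0.20 in the ovulation window, a call (edgeR adjusted p = 0.0476) that was lost in 14 of the 23 fits that left out 1 library.

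Of the J-domain proteins, Dnaja1 and Dnajb1, main partners of cytosolic HSP70, had about the same abundance per length. Dnaja1 had 100 to 136 TPM (median 109 TPM) in maturation controls and 113 to 152 TPM (median 133 TPM) with PFNA. Of the PFNA libraries 5 of 10 exceeded the highest control, and the rise was 0.21 ± 0.0641 (SE, log2; limma adjusted p = 0.0181), a call lost with the oocyte covariate at no smaller a value (0.24, limma adjusted p = 0.129). Among the hCG-treated libraries, controls had 334 to 402 CPM (median 362 CPM) and PFNA libraries 441 to 763 CPM (median 548 CPM). The groups did not overlap, and the rise was 1.62-fold (edgeR adjusted p = 2.12e-08).

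Dnajb1 (HSP40) had 84.1 to 159 TPM (median 115 TPM) in maturation controls and 97.3 to 340 TPM (median 217 TPM) with PFNA. All but 2 PFNA libraries lay above the controls, for a rise of 0.85 ± 0.163 (SE, log2; limma adjusted p = 0.00055). For the ovulation window the controls had 76.4 to 105 CPM (median 90.5 CPM) and PFNA libraries 102 to 165 CPM (median 123 CPM), and 10 of 11 PFNA libraries lay above the controls. The rise there was 0.46 ± 0.0775 (SE, log2; edgeR adjusted p = 9.54e-06). Of the members that rose in both windows Dnajb1 alone had a called difference in favour of the maturation window, of -0.41 ± 0.18 (SE, log2; limma adjusted p = 0.0475). That call was lost without PFNA replicates 1 and 2 (-0.42, limma adjusted p = 0.0521) and with median-ratio size factors (-0.35, limma adjusted p = 0.0806).

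Dnajb4, a J-domain protein known from muscle, had 7.87 to 17.3 TPM (median 10.5 TPM) in maturation controls and 9.29 to 23.2 TPM (median 13.1 TPM) with PFNA. The groups overlapped and it did not pass (log2 fold change 0.31, limma adjusted p = 0.105). Ovulation controls had 16.4 to 37.8 CPM (median 24.4 CPM) and PFNA libraries 99.3 to 186 CPM (median 120 CPM), with no overlap. The means were 25.0 ± 5.39 CPM (SD, n = 12) and 131 ± 27.9 CPM (SD, n = 11), a 5.25-fold rise (log2 fold change 2.39 ± 0.122, SE; edgeR adjusted p = 8.85e-15). The effect was larger in the ovulation window by 2.04 ± 0.183 (SE, log2; limma adjusted p = 8.6e-13).

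Dnajb2, a neuronal J-domain protein with ubiquitin-interacting motifs, rose in the ovulation window by 0.47, and there all 11 PFNA libraries lay above the controls. Dnaja2, Dnaja4, Dnajb5 and Dnajb6 fell there by 0.40 to 0.66 on the log2 scale (edgeR adjusted p from 3.76e-07 to 0.00821) and passed in the maturation window in no case. All 4 had a called difference between windows. Of the 8 HSP40 members 4 rose and 4 fell in the ovulation window, near the shares of all genes (37.9% and 35.2%), with a median log2 fold change of 0.03.

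Hspb1 (HSP27) was the most abundant small heat shock protein per length. It had 31.8 to 86.8 TPM (median 64.6 TPM) in maturation controls and 81.2 to 170 TPM (median 110 TPM) with PFNA. Of the PFNA libraries 8 of 10 lay above every control, and the rise was 0.98 ± 0.185 (SE, log2; limma adjusted p = 0.000479). In the ovulation window it had 6.08 to 9.92 CPM (median 7.71 CPM) in controls and 88.0 to 225 CPM (median 139 CPM) with PFNA. The groups lay far apart, with means of 7.93 ± 1.31 CPM (SD, n = 12) and 138 ± 47.3 CPM (SD, n = 11), a 17.4-fold rise (log2 fold change 4.12 ± 0.164, SE; edgeR adjusted p = 1.91e-16). The effect was larger in the ovulation window by 2.93 ± 0.232 (SE, log2; limma adjusted p = 4.5e-14).

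Hspb6 (HSP20) moved in opposite directions in the 2 windows. It had 17.1 to 30.2 TPM (median 21.1 TPM) in maturation controls and 7.33 to 21.4 TPM (median 12.3 TPM) with PFNA. Of the PFNA libraries 7 of 10 lay below every control, and it fell by 0.73 ± 0.154 (SE, log2; limma adjusted p = 0.0012), a call lost with the oocyte covariate (-0.69, limma adjusted p = 0.071). Levels in ovulation controls were 1.16 to 4.67 CPM (median 2.84 CPM) and in PFNA libraries 6.21 to 14.8 CPM (median 7.39 CPM), with no overlap. It rose 3.14-fold there from a low level (log2 fold change 1.65 ± 0.199, SE; edgeR adjusted p = 4.93e-08), and the effects differed by 2.10 ± 0.222 (SE, log2; limma adjusted p = 3.09e-11).

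Bag3, which links HSP70 and small heat shock proteins to autophagy, had 19.8 to 23.1 TPM (median 21.2 TPM) in maturation controls and 21.8 to 34.3 TPM (median 24.9 TPM) with PFNA. Of the PFNA libraries 8 of 10 lay above every control (log2 fold change 0.25 ± 0.0611, SE; limma adjusted p = 0.00366). Among the hCG-treated libraries, controls had 62.0 to 97.1 CPM (median 78.8 CPM) and PFNA libraries 127 to 258 CPM (median 170 CPM). These groups did not overlap, and the rise was 2.25-fold (log2 fold change 1.17 ± 0.0938, SE; edgeR adjusted p = 3.41e-11). Bag2, an exchange factor that inhibits the ubiquitin ligase CHIP, fell by 0.36 in the maturation window, a call lost with the oocyte covariate (-0.27, limma adjusted p = 0.297). It rose by 0.66 in the ovulation window, and the difference of 1.01 ± 0.143 (SE, log2) passed (limma adjusted p = 4.98e-08).

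Hspb8, the small heat shock protein that works with Bag3, rose by 0.58 in the maturation window (limma adjusted p = 0.0385), lost in 12 of the 21 fits without 1 library and with the oocyte covariate, at no smaller a value (0.61, limma adjusted p = 0.225), and by 0.38 in the ovulation window (edgeR adjusted p = 0.0366), lost in 9 of 23. Cryab (αB-crystallin) was the least abundant member of its group, at medians of 0.684 TPM in maturation controls and 1.76 TPM with PFNA, and passed in neither window, though with the oocyte covariate its log2 fold change in the maturation window was 1.34 (limma adjusted p = 0.045).

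The mitochondrial chaperones did not pass in the maturation window. Hspd1 (HSP60) and Hspe1 (HSP10) had about the same abundance per length. Hspd1 had 171 to 246 TPM (median 196 TPM) in controls and 169 to 260 TPM (median 211 TPM) with PFNA, and its groups overlapped (log2 fold change 0.05, 95% interval -0.11 to 0.21). For the ovulation window the controls had 386 to 553 CPM (median 472 CPM) and PFNA libraries 862 to 1465 CPM (median 1170 CPM), with no overlap. The rise was 2.46-fold (log2 fold change 1.30 ± 0.0964, SE; edgeR adjusted p = 7.99e-12), larger than in the maturation window by 1.23 ± 0.122 (SE, log2; limma adjusted p = 6.44e-12).

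Hspe1 had 175 to 221 TPM (median 202 TPM) in maturation controls and 193 to 282 TPM (median 207 TPM) with PFNA, which overlapped. Ovulation controls had 86.3 to 105 CPM (median 98.5 CPM) and PFNA libraries 202 to 357 CPM (median 267 CPM). These groups did not overlap, and the rise was 2.81-fold (log2 fold change 1.49 ± 0.0825, SE; edgeR adjusted p = 3.58e-14), larger than in the maturation window by 1.34 ± 0.103 (SE, log2; limma adjusted p = 3.51e-15). Hspa9 (mortalin), the HSP70 of the matrix, had a log2 fold change of 0.16 in the maturation window (limma adjusted p = 0.091) and of 0.17 in the ovulation window (edgeR adjusted p = 0.0447), a call lost in 15 of 23 fits that left out 1 library.

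Of the transcription factors, Hsf1 did not pass in the maturation window and fell by 0.23 in the ovulation window (edgeR adjusted p = 0.00498), and Hsf2 passed in neither. Ubb, a polyubiquitin gene, had 2678 to 3466 TPM (median 2943 TPM) in maturation controls and 1728 to 2948 TPM (median 2742 TPM) with PFNA. The groups overlapped, and the log2 fold change of -0.19 did not pass (limma adjusted p = 0.0638). Ovulation libraries had 494 to 855 CPM (median 626 CPM) in controls and 701 to 1050 CPM (median 922 CPM) with PFNA, and in 10 of 11 PFNA libraries it exceeded the highest control (log2 fold change 0.55 ± 0.075, SE; edgeR adjusted p = 3.72e-07).

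Over all members the PFNA effect was higher in the ovulation window than in the maturation window for 18, against 32.0% of the 11212 genes tested in both, and lower for 8, against 35.6%. By group, those with the higher effect in ovulation were 4 of 9 HSP70, 4 of 6 HSP90, 3 of 8 HSP40, 4 of 6 small HSP and BAG, 2 of 3 mitochondrial members, and Ubb. The member share of all TPM had a median of 0.996% in maturation controls (highest 1.28%) and 1.61% with PFNA (lowest 0.931%), and the groups overlapped. The Hspa1a and Hspa1b sum alone had medians of 0.147% and 0.674% there. The share of all counts in the ovulation window had a median of 1.03% in controls (highest 1.10%) and 1.98% with PFNA (lowest 1.72%), with no overlap.

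**Figure D4:**
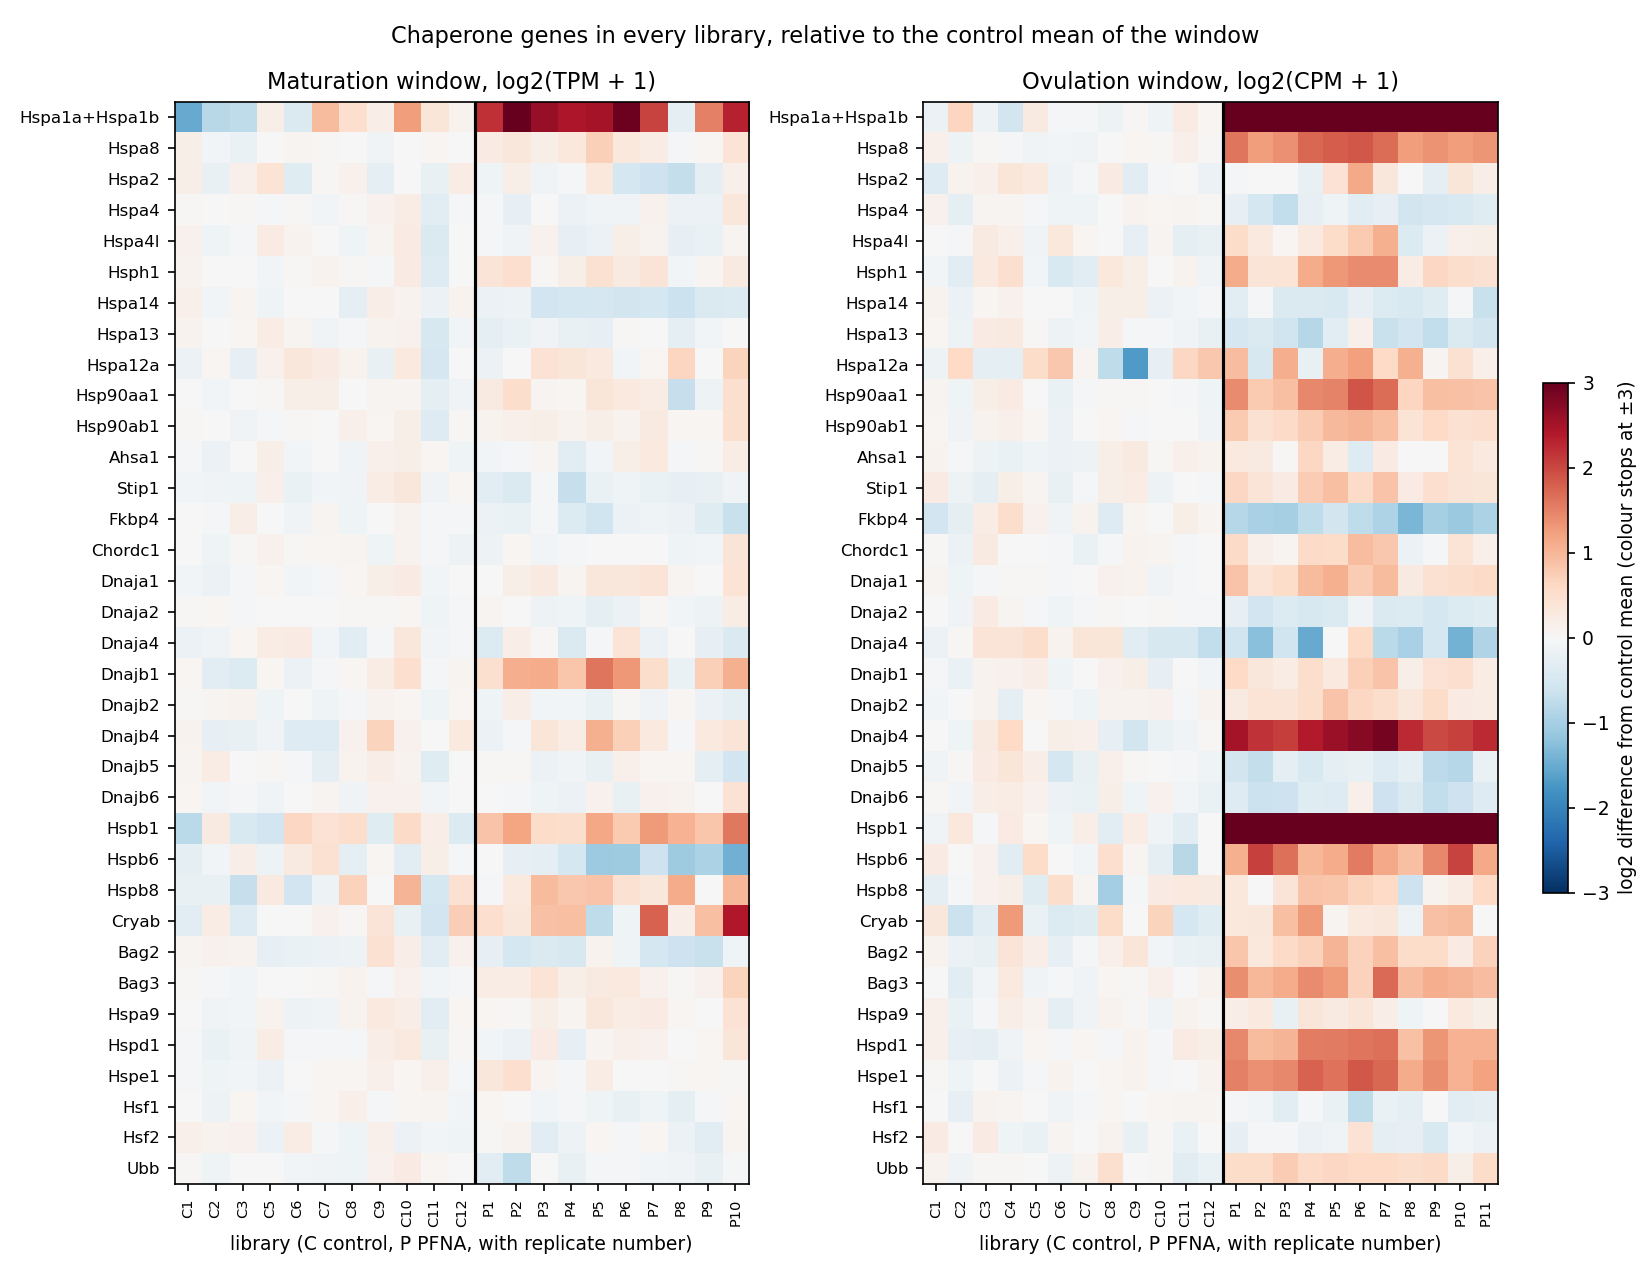
Each member (rows) in each library (columns; C control and P PFNA, with the replicate number), as log2(TPM + 1) in the maturation window (left) and log2(CPM + 1) in the ovulation window (right), minus the mean of that window's controls; colour stops at a difference of 3. The Hspa1a and Hspa1b sum, Hspb1 and Dnajb4 are dark red across all 11 ovulation PFNA libraries, and maturation PFNA replicate 8 is pale for the Hspa1a and Hspa1b sum.

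The members also differed among libraries of the same group. Of the ovulation libraries, PFNA libraries 1, 4, 5, 6 and 7 were the 5 highest of the 11 for 13 of the 35 members, a pattern of 1.02% of the 13440 genes tested. These members were the Hspa1a and Hspa1b sum, Hspa8, Hspa4, Hsph1, Hsp90aa1, Hsp90ab1, Stip1, Fkbp4, Chordc1, Dnaja1, Dnajb4, Hspd1 and Hspe1. The 5 libraries were singled out after these values were seen, so the count is a description. Hsp90aa1 was 2835 to 3915 CPM in them and 1659 to 1975 CPM in the other 6, and Hsph1 was 907 to 1124 CPM and 490 to 644 CPM, a gap in each case. The set included Hspa4 and Fkbp4, which were lower with PFNA than in controls, and left out Hspb1, Bag3 and Hspb6. Hspb6 was highest in replicates 2 and 10, at 14.8 and 14.6 CPM, which were not among the 5.

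The totals of these 5 libraries, 13828178 to 15508731 counts, lay within the range of the other 6, 10600931 to 19511531 counts. Oocyte markers summed to 13.9 to 273 CPM in the 5 and 174 to 501 CPM in the others, immune markers to 289 to 714 CPM and 156 to 412 CPM, and theca and stroma markers to 823 to 2026 CPM and 788 to 1119 CPM. These ranges overlapped, and their part in the pattern was not tested.

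**Figure D5:**
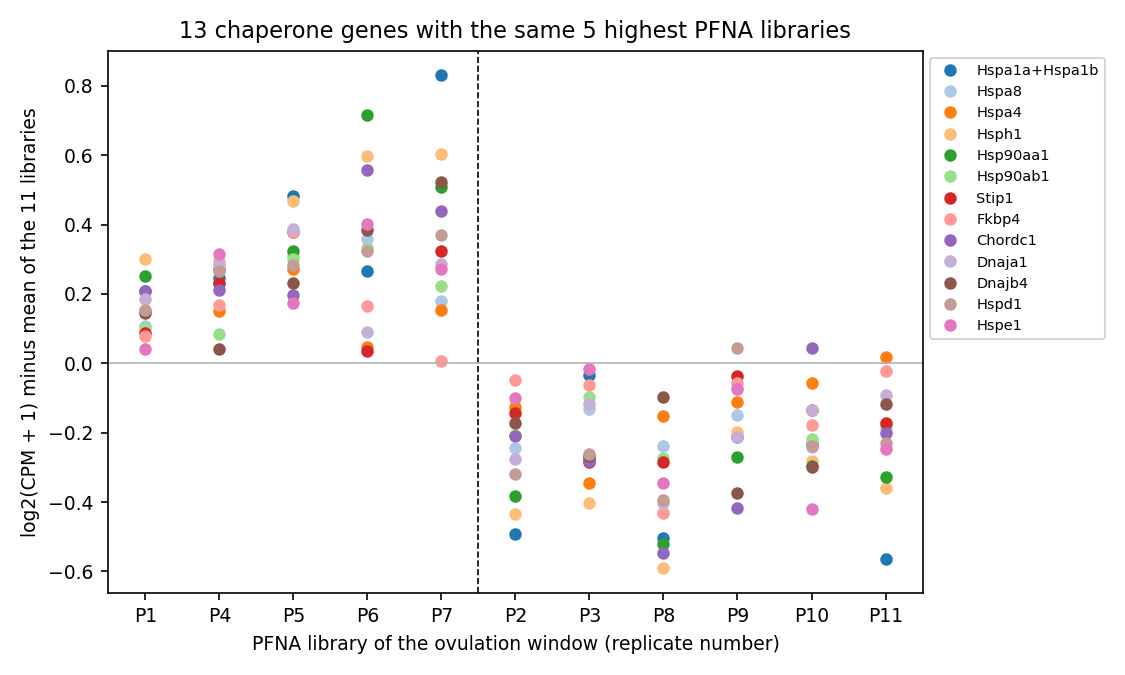
Level of the 13 members in the 11 PFNA libraries of the ovulation window, as log2(CPM + 1) minus the gene's mean over these libraries; the dashed line separates libraries 1, 4, 5, 6 and 7 from the other 6. Each colour is a gene, and for each of the 13 the 5 libraries on the left hold its 5 highest levels.

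In the maturation window PFNA replicate 8 was the lowest of the 10 PFNA libraries for 10 of 35 members, against 11.2% of all genes. These included the Hspa1a and Hspa1b sum, Hspa8, Hsph1, Hsp90aa1, Dnajb1 and Bag3. PFNA replicate 10 was the highest for 13 of 35, against 35.1% of all genes.

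Relations of the Hspa1a and Hspa1b sum with Dnajb1, Hsph1, Hsp90aa1 and Hspa8 were computed within each group on log2 values, 16 in all. In maturation PFNA libraries the sum rose with Dnajb1 (r = 0.833, permutation p = 0.00407, adjusted p = 0.013; rho = 0.830, permutation p = 0.00459, adjusted p = 0.0184; n = 10), and r was 0.602 without replicates 8 and 9, the farthest from the median. With Hsp90aa1 r was 0.897 (permutation p = 0.00354, adjusted p = 0.013) and rho 0.673 (permutation p = 0.0393, adjusted p = 0.0899), but r was 0.310 without replicates 8 and 9, so the relation rested on them. With Hsph1 r was 0.677 (permutation p = 0.0204, adjusted p = 0.0408) and rho 0.430 (permutation p = 0.217, adjusted p = 0.316), and r fell to 0.0676 without those libraries.

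In maturation controls none of the 4 relations passed after adjustment. The strongest was with Dnajb1 (r = 0.614, permutation p = 0.0434, adjusted p = 0.0771; rho = 0.555, permutation p = 0.083, adjusted p = 0.133; n = 11). In ovulation controls the sum was lower where Hsp90aa1 was higher (r = -0.656, permutation p = 0.0204, adjusted p = 0.0408; rho = -0.706, permutation p = 0.0146, adjusted p = 0.0466; n = 12), but r was -0.361 without replicates 2 and 4, the farthest from the median. In ovulation PFNA libraries the relation with Dnajb1, which was not among the 13 members above, had r = 0.714 (permutation p = 0.0143, adjusted p = 0.0382) and rho = 0.70 (permutation p = 0.0205, adjusted p = 0.0548; n = 11), and r was 0.458 without replicates 7 and 11. Dnajb1 overlapped between the sets of 5 and 6 libraries, at 112 to 165 CPM and 102 to 131 CPM, but the sum was split between them. Its pooled r can therefore reflect that split, and its relation within the 6 was not computed. The sum itself and Hsph1, Hsp90aa1 and Hspa8 were all split between the 2 sets, so for these 3 genes no pooled correlation is given. Within the 6 libraries, a calculation added after these values were seen, r was 0.458 with Hsph1, 0.666 with Hsp90aa1 and 0.634 with Hspa8. The rho values were 0.371, 0.771 and 0.486, and none of the 3 relations passed (exact permutation adjusted p of 0.246 to 0.362 for r and 0.308 to 0.497 for rho, two-sided).

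Chaperone genes outside the members gave the following counts of calls at adjusted p under 0.05 (limma in the maturation window, edgeR in the ovulation window). All genes tested gave 13.3% higher and 16.1% lower in the maturation window, and 37.9% higher and 35.2% lower in the ovulation window, and with so few genes a list many of these counts are near those shares. Of the 8 subunits of the TRiC/CCT chaperonin, which folds actin and tubulin, 1 rose and 4 fell in the ovulation window, and 1 rose and 3 fell in the maturation window. Of 6 subunits of prefoldin, which delivers those clients, 1 rose and 4 fell in the ovulation window, with Pfdn5 at 0.55 and Pfdn6 at -0.77. In the maturation window 2 fell. Of 9 other HSP90 co-chaperones 2 rose and 3 fell in the ovulation window, while 1 rose and 5 fell in the maturation window, among them Fkbp5 at -0.46 and Nudc at -0.44 on the log2 scale.

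Of 13 other partners of HSP70 and HSP40, 2 rose and 8 fell in the ovulation window, with Dnajc5 at -1.05 and Bag4 at -1.02 on the log2 scale. The maturation window had 3 lower, with Dnajc9, a histone chaperone, at -1.03. Of 8 other mitochondrial chaperones and proteases 3 rose and 3 fell in the ovulation window, and 2 rose and 1 fell in the maturation window. The ovulation log2 fold change was 2.315 for Hscb, from a low control mean of 0.746 CPM, and -0.96 for Grpel2.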

How the data were processed

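RNA of mouse ovarian follicles was sequenced in 44 libraries after poly-T bead selection and random-hexamer priming, per the labels' protocols. The submitters' processing notes name Partek, Bowtie2 and HISAT2, without roles or versions, and the genome build, annotation and use of strand are not given in the sources used here. The authors deposited a TPM table for the maturation window, which its values show although it is named as raw counts, and a table of estimated counts for the ovulation window, which were rounded here. Of the values 83.5% and 18.5% were not whole. Positions are those of the maturation table (GRCm38, with the starts of GENCODE M21 for 35 of 36 members).

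The members and lists were chosen with earlier results of these data known. Hspa1a and Hspa1b were summed before testing. Genes averaging 1 TPM or more over the libraries were tested in limma 3.58.1 (trend, robust) on log2(TPM + 1), which understates the change of low genes, and ovulation counts in edgeR 4.0.16 (filterByExpr, TMM, robust quasi-likelihood test). All 35 units passed both filters. The difference between windows is the limma effect on log2(CPM + 1) minus that on log2(TPM + 1), with degrees of freedom after Satterthwaite. Adjustment was by Benjamini and Hochberg over all genes tested, and tests were two-sided. DESeq2 1.42.0 was an alternative. Correlations used 100000 permutations, two-sided. Scripts were tested on simulated data. Every member is accounted for, and in full those called with a log2 change of at least 1 in a window and the most abundant of each role group.

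A column that differed by a letter from the title of maturation control replicate 6 was taken as that library. No maturation control replicate 4 was analysed here. The list of other heat shock genes is not reported here.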

Additional observations from a re-analysis of the deposited data

Results flagged for a closer look

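The PFNA effect differed between the windows for 26 members in the test of the difference itself (limma, adjusted p under 0.05). Most genes differed too: of the 11212 genes tested in both windows, 32.0% had a called difference above 0 and 35.6% one below 0. The difference, in log2 units and as ovulation minus maturation, was above 0 for the Hspa1a and Hspa1b sum (4.78), Hspb1 (2.93), Hspb6 (2.10), Dnajb4 (2.04), Hspe1 (1.34), Hspa8 (1.23), Hspd1 (1.23), Hsp90aa1 (1.02) and Bag2 (1.01). It was also above 0 for Bag3 (0.89), Stip1 (0.79), Ubb (0.75), Hsph1 (0.57), Dnajb2 (0.52), Hsp90ab1 (0.51), Dnaja1 (0.47), Chordc1 (0.36) and Hspa4l (0.35). It was below 0 for Fkbp4 (-0.64), Dnaja4 (-0.62), Dnajb6 (-0.49), Dnajb1 (-0.41), Hspa13 (-0.36), Dnajb5 (-0.36), Dnaja2 (-0.34) and Hspa4 (-0.33). Of these, the differences of Stip1, Hspb6 and Bag2 join a called fall in the maturation window to a called rise in the ovulation window. The windows differ in the unit of their tables as well as in exposure, which cannot be told apart.

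In groups of 10 libraries a value was singled out where its gap to the next exceeded 0.466 of the group's range (Dixon's 95% value), which chance does for about 1 in 20 groups. Among the 35 members in maturation PFNA libraries this held for 5. The larger groups were not searched, and the share of all genes that meet this rule was not counted. In this group replicate 10 was the highest library for 35.1% of all genes tested. Replicate 10 was the highest for Bag3 (34.3 TPM, next 28.3), Chordc1 (20.96 TPM, next 16.6), Dnajb6 (15.2 TPM, next 12.2) and Hsp90ab1 (3498 TPM, next 3023). Replicate 2 was the lowest for Ubb (1728 TPM, next 2334).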

How the results depend on the processing

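The counts of members called were within 1.5 times of those reported under all alternatives but 1. With the oocyte marker level as a covariate, 1 member, Fkbp4, was called lower in the maturation window in place of 5, and 7 in place of 9 were called higher. The calls over all genes went from 1823 higher and 2206 lower to 543 and 499, and the cause was not tested. Leaving out 1 library gave 7 to 10 members higher and 5 to 6 lower in the maturation window, and 19 to 22 higher and 9 to 10 lower in the ovulation window. Without control replicate 6, whose column was matched by a near title, Hsp90ab1 and Hspb8 missed the threshold in the maturation window (limma adjusted p = 0.056 and 0.0678). No called member changed direction under any alternative run.

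Same-numbered libraries did not deviate together (correlations of -0.14 to 0.17 over 9 pairs and -0.19 to 0.073 over 11), so the numbers were not taken as pairs. With a replicate block 6 members were called higher and 4 lower in the maturation window, and 22 and 9 in the ovulation window. DESeq2 gave 22 and 9 in the ovulation window. Over all genes, no filter on low counts moved the median log2 fold change in the ovulation window from 0.04 to 0.26 and the share of calls that were higher from 51.9% to 58.5%, and 19 members were then called higher and 9 lower. The block moved that share in the maturation window from 45.2% to 35.6%, with 1031 genes higher and 1862 lower. The depth behind the TPM values is unknown, so small changes of low members there carry an unknown counting error.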
